A study of Mus musculus with 17 samples.

Results

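Polycystic kidney disease and the primary cilium are linked by a small group of genes, and 8 of them were followed here through every library of a mouse kidney RNA-sequencing series: Pkd1, Pkd2, Pkhd1, Ift88, Ift140, Kif3a, Arl13b and Bbs4. They were chosen by name, with earlier results of these data known, and matched to the Ensembl identifiers of the count files with the version number dropped. All 8 were found, of 53313 identifiers present in all 17 files. The primary cilium is a single antenna-like projection on the surface of most kidney tubule cells. It is built and maintained by intraflagellar transport, in which motor proteins carry protein trains out to the tip and back. The cilium is taken apart before a cell divides, and loss of many of its parts gives fluid-filled cysts in kidney tubules.

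Pkd1 encodes polycystin-1, a large receptor-like membrane protein, and Pkd2 encodes polycystin-2, the cation channel that partners it. Mutation of either causes autosomal dominant polycystic kidney disease. Pkhd1 encodes fibrocystin, a ciliary membrane protein mutated in the recessive form of the disease. Ift88 belongs to the IFT-B train that moves outwards, and Ift140 to the IFT-A train that moves back. Kif3a is a motor subunit of kinesin-2, Arl13b is a small GTPase of the ciliary membrane, and Bbs4 is a subunit of the BBSome, the coat that carries membrane proteins into and out of the cilium.

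The study asked how ageing and cellular senescence change gene expression in mouse kidney tubules. Primary tubular epithelial cells (PTEC) were grown from collagenase-digested kidneys of wild-type C57BL/6Rj mice (C57BL/6JRj in the study's methods), and the labels give them as proximal tubular cells. Non-senescent PTEC were untreated cultures at day 6 (n = 4). Senescent PTEC were cultures at day 16 that had received 10 Gy of γ-irradiation when confluent (n = 4), so that irradiation and the longer culture cannot be told apart. Kidney tissue came from untreated wild-type mice of the same strain at 3, 12 and 24 months (n = 3 at each age). By the study's methods all were male, and RNA was taken from a part of the right kidney, the rest being fixed for histology. The labels do not say whether same-numbered cultures came from 1 mouse, nor that cultures of 1 group came from different mice, so p-values measure the spread between these libraries.

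Total counts ran from 26963442 to 35409144 in the PTEC libraries and from 37311247 to 66894790 in the kidneys. Markers of the proximal tubule were low in culture: the 9 listed genes summed to 100.1 to 562 CPM (counts scaled to a common library size) in non-senescent PTEC and to 121 to 266 CPM in senescent PTEC, against 12614 to 21853 CPM in 3-month kidney. Lrp2, the endocytic receptor megalin, was at 160 ± 176 CPM in non-senescent PTEC (SD, n = 4), while Slc22a6, an organic anion transporter, did not exceed 0.260 CPM in any PTEC library. The proximal name of the cultures comes from the labels. Of the listed proximal markers, 6 of 9 had a mean of 1 CPM or more in non-senescent and 4 of 9 in senescent PTEC. Markers of other cell types were present too. Endothelial markers summed to 52.3 to 186 CPM in non-senescent PTEC and to 172 to 245 CPM in 3-month kidney, and podocyte markers to 42.6 to 103 and 156 to 374 CPM. Libraries also differed in how many counts fell on long genes. Genes with at least 10 kb of exon sequence took 8.06 to 14.5% of counts in non-senescent PTEC, 12.2 to 15.7% in senescent PTEC and 4.86 to 7.66% in kidneys. The lowest PTEC values in both groups were in the cultures numbered 3. Pkd1, Pkhd1 and Pkd2 are such long genes (17.4, 14.3 and 10.2 kb), so this share is given beside their results.

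The genes lie on 7 chromosomes of GRCm38. Pkd1 (chr17:24549834-24596508, plus strand) and Ift140 (chr17:25016085-25099495, plus strand) share chromosome 17. Pkd2 lies at chr5:104459450-104505819, Ift88 at chr14:57424062-57517936 and Kif3a at chr11:53567379-53601967, all on the plus strand. Pkhd1 (chr1:20057779-20618064), Arl13b (chr16:62793685-62847040) and Bbs4 (chr9:59321990-59353508) are on the minus strand. Exons of Pkd1 overlap 693 bases of Tsc2 on the opposite strand, 3.98% of its exon sequence, and those of Bbs4 overlap 194 bases of Adpgk, 3.21%. The library kit kept strand, but the strand setting of the counting is not given in the sources used here. Reads in these stretches could therefore belong to the neighbour. Every one of the 8 genes was measured with at least 156 counts in each library, the lowest being Bbs4 in non-senescent PTEC.

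Set per kilobase of exon, so that genes can be compared, Pkd2 and Pkhd1 were the most abundant in all 5 groups. In 3-month kidney Pkd2 stood at 13.3 ± 3.58 CPM per kb (SD, n = 3) and Pkhd1 at 9.08 ± 3.40 CPM per kb, with overlapping ranges. Kif3a followed at 5.54 ± 1.61 and Ift88 at 3.87 ± 0.619 CPM per kb. Bbs4, Ift140 and Arl13b lay close together at 2.07 ± 0.311, 1.82 ± 0.523 and 1.66 ± 0.215 CPM per kb. Pkd1, the partner of Pkd2, was lowest at 1.16 ± 0.139 CPM per kb. In senescent PTEC the level of Pkd1 was 4.95 ± 1.60 CPM per kb (n = 4), and the lowest place was held by Bbs4 at 2.17 ± 0.282 CPM per kb.

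**Figure D1:**
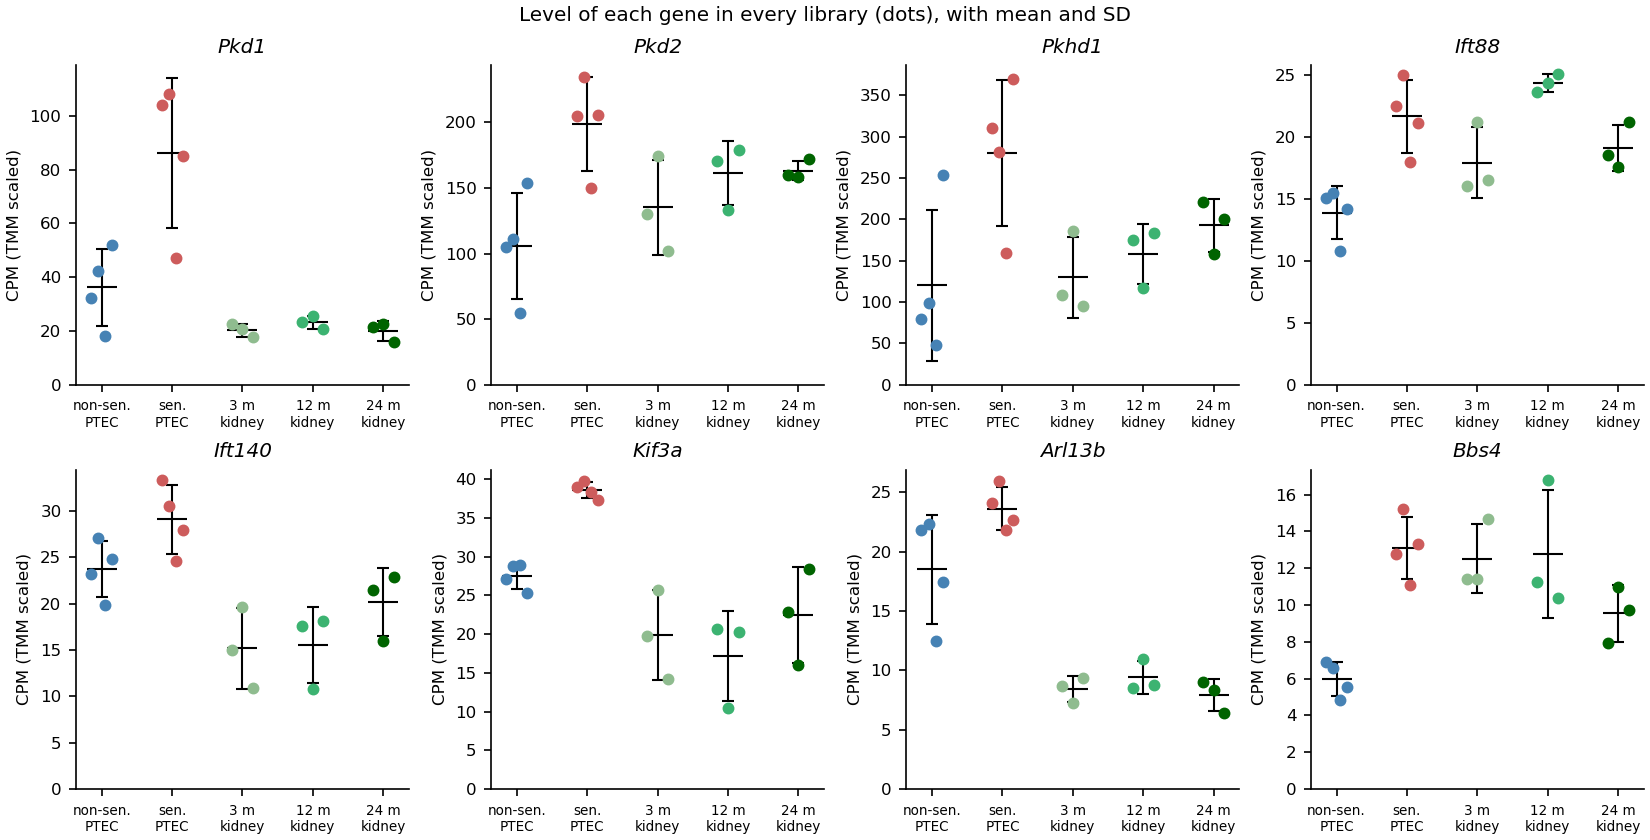
Level of each of the 8 genes in every library, as CPM with TMM scaling over all 17 libraries on a linear axis from 0. Dots are libraries, horizontal lines are group means and bars are SD (n = 4 for PTEC groups, n = 3 for kidneys). Senescent PTEC has the highest mean for every gene except Ift88, whose mean is highest in 12-month kidney at 24.4 CPM.

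The first comparison asked what differed between senescent and non-senescent cultures. All 8 genes had higher mean levels in senescent PTEC. Of them 5 rose by the test used throughout, an adjusted p below 0.05 with a log2 fold change above 0.5 in edgeR's quasi-likelihood fit: Pkd1, Pkd2, Ift88, Kif3a and Bbs4. None fell. The same test called 20.1% of the 15434 genes tested higher in senescent PTEC and 19.7% lower. The median log2 fold change was 0.81 over the 8 genes and -0.00 over all genes tested.

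Pkd1 stood at 32.4, 42.2, 18.1 and 52.0 CPM in non-senescent cultures 1 to 4 and at 103.9, 108, 47.3 and 85.1 CPM in senescent cultures 1 to 4. The third culture was the lowest of its group on both sides, and the groups overlapped only because senescent culture 3 lay below non-senescent culture 4. The mean rose from 36.2 ± 14.5 to 86.2 ± 27.8 CPM (SD, n = 4 each), a log2 fold change of 1.29 (SE 0.34, 95% interval 0.52 to 2.05, adjusted p = 0.0134). The call held whichever culture was left out.

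Pkd2, which encodes the channel partner, was measured at 105, 111, 54.9 and 153 CPM in non-senescent and at 205, 235, 150 and 206 CPM in senescent PTEC. Senescent culture 3 was again the lowest of its group and fell just under non-senescent culture 4. It rose by a log2 fold change of 0.94 (SE 0.28, 95% interval 0.31 to 1.57, adjusted p = 0.0219). This call was lost in 4 of 8 fits that left out 1 culture. Without non-senescent culture 1 the adjusted p was 0.0518, and without senescent culture 1, 2 or 4 it was 0.0501, 0.0564 or 0.0504, at log2 fold changes of 0.85 to 0.93.

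Pkhd1 spread most among the cultures. It was at 79.6, 98.7, 48.2 and 254 CPM in non-senescent and at 310, 281, 160 and 369 CPM in senescent PTEC. Non-senescent culture 4 stood above the other 3 of its group and above senescent culture 3. Tubule markers also set this culture apart. In non-senescent cultures 1 to 4 Lrp2 was at 81.9, 83.8, 52.0 and 423 CPM and Slc12a1, of the loop of Henle, at 3.77, 3.14, 4.14 and 13.8 CPM. Cldn16, another loop marker, was not highest there (12.2, 7.92, 16.9 and 11.5 CPM). The part of these markers in the values of Pkhd1 was not tested. The log2 fold change of Pkhd1, 1.25, was as large as that of Pkd1, but its interval was wider (0.19 to 2.31, SE 0.48) and the adjusted p of 0.0565 missed the threshold. With cultures of the same number paired, Pkhd1 did pass (log2 fold change 1.48, adjusted p = 0.0011), as it did in DESeq2 (1.24, adjusted p = 0.0179) and with all 17 libraries in one fit (1.23, adjusted p = 0.0213). It also passed without non-senescent culture 4 (1.93, adjusted p = 0.0028) or without senescent culture 3 (1.46, adjusted p = 0.0358).

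These are the 3 longest genes of the group, and the cultures numbered 3 that gave their lowest values also gave the lowest share of counts on long genes. With an offset for exonic length in the fit, the log2 fold changes were 1.06 for Pkd1 (adjusted p = 0.00099), 0.82 for Pkd2 (adjusted p = 0.0044) and 1.11 for Pkhd1 (adjusted p = 0.0251). Without both cultures numbered 3 they were 1.28, 0.85 and 1.19, and Pkhd1 again missed the threshold (adjusted p = 0.0552). Among all tested genes of at least 10 kb the median log2 fold change was 0.13, and 18.8% were called higher.

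The transport genes varied less. Ift88 was at 15.1, 15.5, 10.8 and 14.2 CPM in non-senescent and at 22.5, 25.0, 17.97 and 21.2 CPM in senescent PTEC. Every senescent culture lay above every non-senescent one. It rose by a log2 fold change of 0.68 (SE 0.16, 95% interval 0.31 to 1.05, adjusted p = 0.0083), and the call held in all 8 fits that left out 1 culture.

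Kif3a had the tightest groups, at 27.1, 28.8, 28.9 and 25.3 CPM in non-senescent and at 38.9, 39.8, 38.3 and 37.3 CPM in senescent PTEC. The groups did not overlap and lay far apart relative to their spread. Kif3a rose by a log2 fold change of 0.52 (SE 0.11, 95% interval 0.28 to 0.77, adjusted p = 0.0039), just above the required size. Without non-senescent culture 4 it was 0.49 and fell under that size. With all 17 libraries in one fit it was 0.50 with an adjusted p of 0.0731.

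Ift140, of the returning IFT-A train, was at 23.2, 27.1, 19.8 and 24.8 CPM in non-senescent and at 33.3, 30.5, 24.6 and 27.9 CPM in senescent PTEC. The groups overlapped, and the log2 fold change of 0.33 (95% interval -0.00 to 0.66) did not pass (adjusted p = 0.0971). Arl13b, whose protein marks the ciliary membrane, was at 21.8, 22.3, 12.5 and 17.4 CPM against 24.1, 26.0, 21.8 and 22.6 CPM. Here too the ranges met, and the log2 fold change of 0.39 (95% interval -0.02 to 0.80) did not pass (adjusted p = 0.114).

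Bbs4 was, per kilobase, the least abundant of the 8 in both PTEC groups and had the smallest adjusted p. It was at 6.91, 6.59, 4.85 and 5.56 CPM in non-senescent and at 12.8, 15.2, 11.1 and 13.3 CPM in senescent PTEC. All senescent cultures lay well above all non-senescent ones. The log2 fold change was 1.17 (SE 0.17, 95% interval 0.78 to 1.56, adjusted p = 0.00061), and no left-out culture changed the call. Thus 3 of the 8 genes, Ift88, Kif3a and Bbs4, had senescent cultures that all lay above the non-senescent ones, as did 21.0% of the 15383 tested genes with a level in all libraries.

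When each senescent culture was set against the non-senescent culture of the same number, the level was higher in all 4 pairs for each of the 8 genes, as it was for 31.5% of the 15383 genes. The 8 genes share the same 4 pairs, so their counts are not independent. The ratios for Pkhd1 ran from 1.45 in pair 4 to 3.90 in pair 1. For Kif3a they stayed between 1.33 and 1.48. Bbs4 had ratios of 1.85 to 2.40, with the smallest in pair 1. Pair 4 gave the smallest ratio for Pkd1, Pkd2 and Pkhd1, and by a narrow margin for Ift88 and Ift140, while for Kif3a and Bbs4 it gave the largest.

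**Figure D2:**
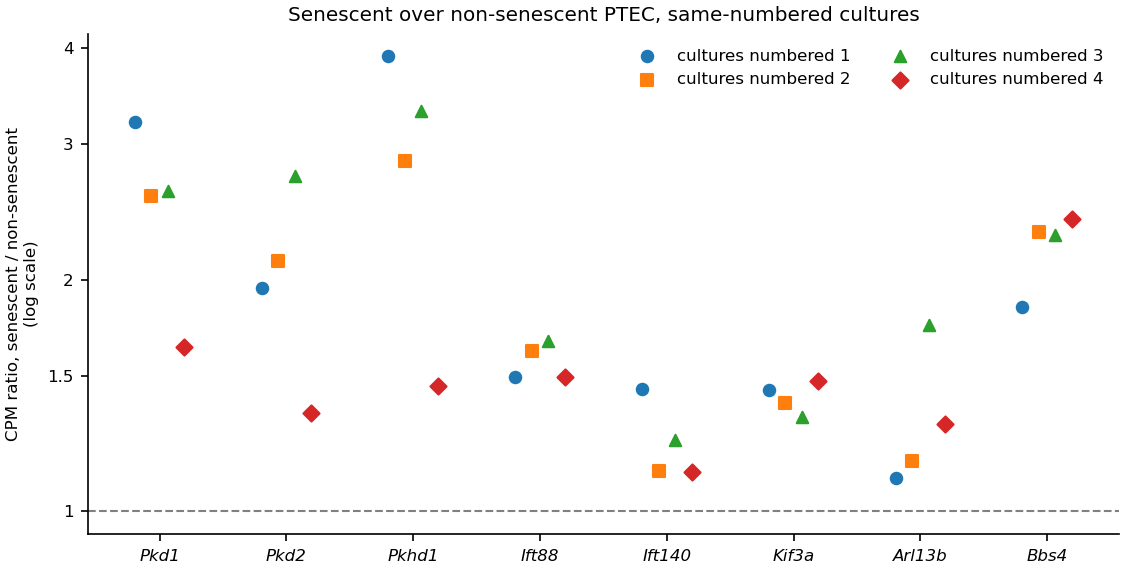
Ratio of CPM in senescent over non-senescent PTEC for cultures with the same number, on a log axis. Each symbol is 1 pair and the dashed line marks a ratio of 1. All 32 ratios lie above 1, from 1.10 for Arl13b in pair 1 to 3.90 for Pkhd1 in pair 1.

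The other genes of the cilium were described by 15 lists that leave out the 8 genes and were chosen with earlier results of these data known. Of 149 genes on them 135 were tested in PTEC, of which 45 rose (33.3%, beside 20.1% of all genes) and 10 fell (7.41%, beside 19.7%), with a median log2 fold change of 0.31. The counts of single lists stand against the same shares of all genes. A gene with few counts in 1 group could enter the test through the other group, and the genes not tested could not be called. The 45 that rose include 7 of 8 tested motile cilium genes, a list whose direction was partly fixed in this way. Among partners of Ift88 in the IFT-B train, 7 of 16 rose and none fell, with a median of 0.33. Ttc30b rose most, from 8.20 ± 1.29 to 15.9 ± 3.64 CPM (log2 fold change 0.996, SE 0.20, adjusted p = 0.0031). Ttc30a1 rose least, by 0.58 (adjusted p = 0.0345), and was called in only 3 of 8 fits that left out 1 culture, with adjusted p from 0.0412 to 0.105. Of the IFT-A partners of Ift140, 3 of 5 rose, led by Ift122 at 0.98 (SE 0.17, adjusted p = 0.0018).

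Among motor genes beside Kif3a, 4 of 8 rose and none fell. The dynein-2 light intermediate chain gene Dync2li1 went from 27.97 ± 2.95 to 51.5 ± 2.55 CPM (log2 fold change 0.92, adjusted p = 0.00033), and Kifap3, encoding the subunit that binds KIF3A and KIF3B, rose by 0.56 (adjusted p = 0.0097). Without senescent culture 2 Kifap3 was at 0.48 and fell under the required size. Of the BBSome and chaperonin genes beside Bbs4, 6 of 12 rose and 1 fell. Bbs1 rose by 1.16 (SE 0.23, adjusted p = 0.0031), whereas Bbs7 fell by 0.64 on the log2 scale (SE 0.14, adjusted p = 0.0044). Only 1 of 12 genes for delivery of membrane proteins rose, Unc119, which carries lipid-modified cargo, at 0.95 (adjusted p = 0.0034).

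At the transition zone, the gate at the base of the cilium, 4 of 16 genes rose and none fell. Ahi1 rose by 1.39 (SE 0.26, adjusted p = 0.0023) and Tctn2 by 0.82 (adjusted p = 0.0020). Of 9 inversin compartment and other nephronophthisis genes 5 were called higher, with Zfp423 at 0.133 ± 0.119 CPM in non-senescent and 0.619 ± 0.266 CPM in senescent PTEC. Zfp423 had 0 to 11 and 12 to 38 counts per library in these groups. It could enter the test only through senescent PTEC, so the filter fixed the direction of its call. That call was also lost without culture 1 of either group. Among 13 other cystic kidney disease genes 1 rose and 2 fell. Bicc1, which encodes an RNA-binding protein, rose from 522 ± 96.5 to 809 ± 105 CPM (log2 fold change 0.67, adjusted p = 0.0130), and Alg9, an enzyme of protein glycosylation, fell by 0.69 (adjusted p = 0.0013).

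Genes of cilium disassembly moved the other way, with 4 of 8 lower and 1 higher. Plk1 fell from 86.6 ± 24.3 to 2.43 ± 0.287 CPM (log2 fold change -5.12, SE 0.24, adjusted p = 2.6e-06), and Nek2, Aurka and Kif24 fell too, at log2 fold changes of -4.61, -4.27 and -1.91. PLK1, NEK2 and Aurora A are also kinases of mitosis. Nedd9, a scaffold that activates Aurora A, rose by 0.72 (adjusted p = 0.0231) but lost the call without non-senescent culture 1 or senescent culture 2 or 4 (adjusted p = 0.0574, 0.0611 and 0.0625). Of 11 centriole genes 1 rose and 3 fell, with Cep97, which caps the centriole, at 1.11 (adjusted p = 0.0018) and Cep89, of the distal appendages, at -0.74 (adjusted p = 0.0014). In the ciliary Hedgehog pathway 2 of 8 tested genes rose, Kif7 by 1.56 and Gpr161 by 1.46 (adjusted p = 0.00060 and 0.00014). Of the ciliary adenylyl cyclases Adcy3 rose by 1.36 (adjusted p = 0.00088) and Adcy5 was called higher at 2.54, while Adcy6 was measured at -0.02. Adcy5 had only 4 to 19 counts in each non-senescent culture and could enter the test only through senescent PTEC, so the filter fixed the direction of its call.

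Other markers moved with this comparison. The 6 proliferation genes summed to 613 to 1099 CPM in non-senescent and to 19.1 to 34.0 CPM in senescent PTEC. Fibroblast and pericyte markers summed to 8.17 to 52.6 CPM against 51.6 to 203 CPM, with 4 of 6 genes at 1 CPM or more in each group. Loop of Henle markers summed to 14.7 to 37.9 against 2.78 to 5.54 CPM, and distal tubule and collecting duct markers to 7.67 to 46.3 against 0.801 to 2.93 CPM, with Aqp2 at 0 in all senescent PTEC. Endothelial markers overlapped, at 52.3 to 186 against 50.2 to 199.98 CPM. The part of these shifts in the results on the 8 genes was not tested.

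**Figure D3:**
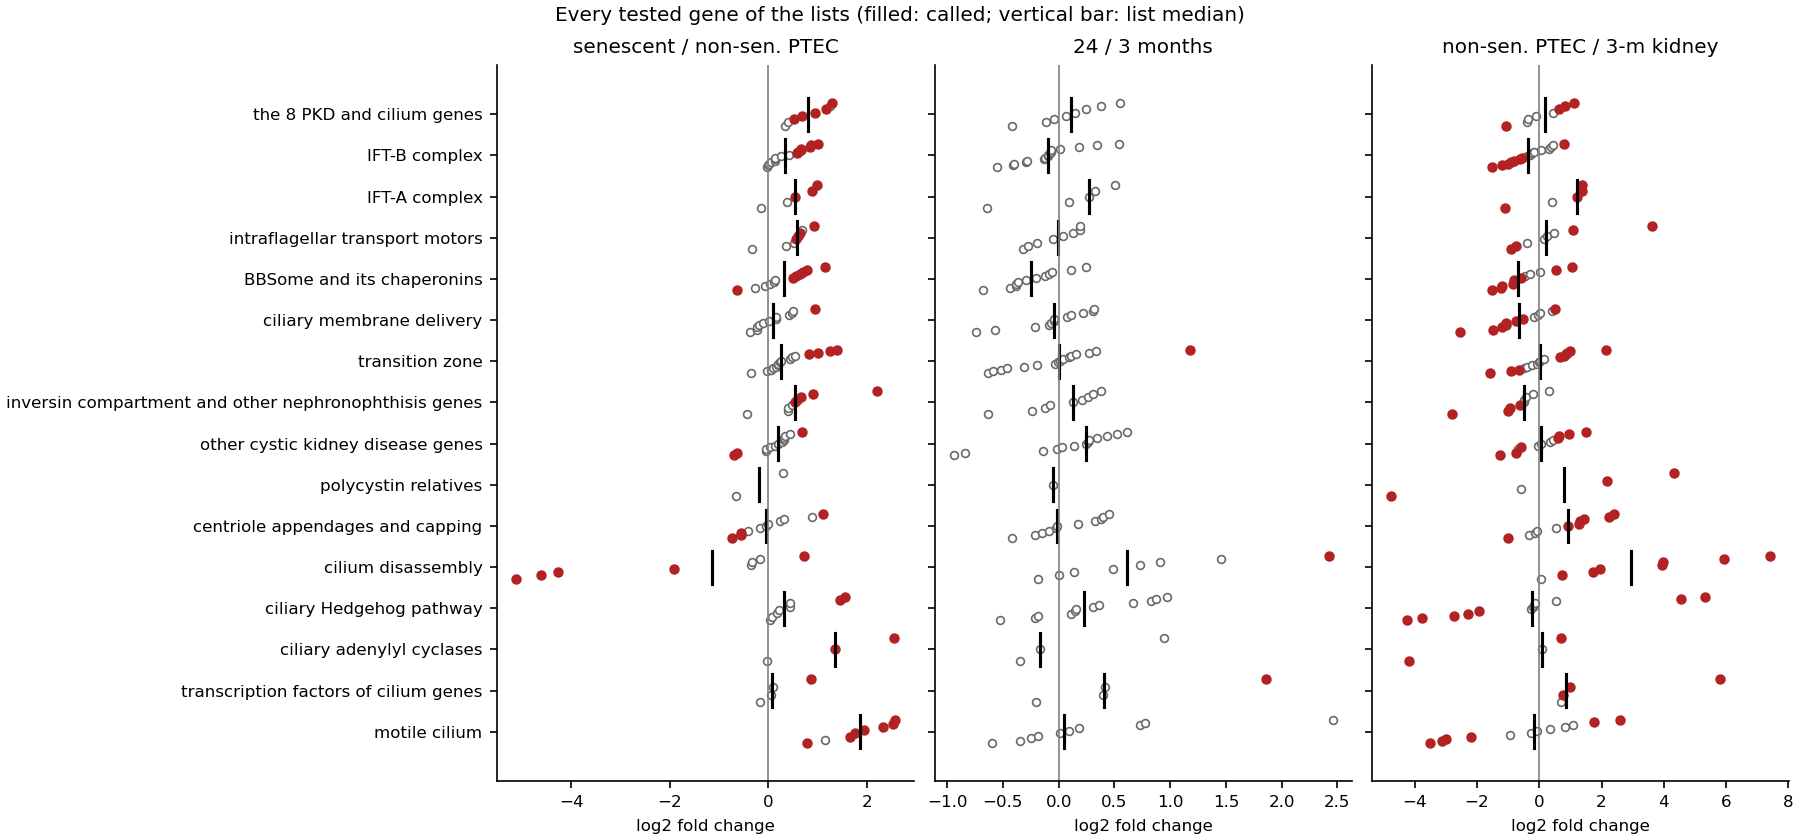
Log2 fold change of every tested gene of the 8 PKD and cilium genes and of the 15 other lists in 3 comparisons. Filled dots were called (adjusted p below 0.05 and a log2 fold change beyond 0.5), open dots were not, and black bars are list medians; the 3 panels have different axis ranges. In senescent PTEC filled dots lie mostly to the right over all lists, though more lie to the left in cilium disassembly, centriole appendages and capping, and other cystic kidney disease genes, in 24-month kidney only 3 are filled, and between culture and kidney they lie on both sides.

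Promoters were searched for the X-box, the sequence bound by RFX transcription factors, many of whose known targets are cilium genes. The search took GTNNCC followed by GGNNAC with 0 to 3 bases between, a motif that reads the same on both strands, in the 300 bases from 250 before to 50 after each RefSeq transcript start (GRCm38.p6). It was found in 3.86% of all 32851 windows and in 2 of the 8 genes, Pkhd1 and Bbs4. Of pathway genes with a window, 11 of 34 that rose in senescent PTEC and 14 of 92 others had a match (32.4% and 15.2%). The sequences of both members and of 6 of the genes that rose follow, 5′ to 3′ on the gene's strand, with the match in capitals.
Pkhd1 (chr1:20618249-20618278, minus strand): ttactgaGTGCCCACTGGTCACactggcta
Bbs4 (chr9:59353464-59353493, minus strand): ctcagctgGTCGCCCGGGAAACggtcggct
Bbs1 (chr19:4906605-4906634, minus strand): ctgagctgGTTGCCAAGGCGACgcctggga
Ift57 (chr16:49699199-49699228, plus strand): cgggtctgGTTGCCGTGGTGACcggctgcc
Wdr19 (chr5:65199654-65199683, plus strand): tttgcacgGTCTCCTGGGTGACgagaacgc
Ahi1 (chr10:20952560-20952589, plus strand): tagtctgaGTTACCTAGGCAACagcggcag
Nphp4 (chr4:152477903-152477932, plus strand): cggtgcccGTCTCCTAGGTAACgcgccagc
Tctn2 (chr5:124598679-124598708, plus strand): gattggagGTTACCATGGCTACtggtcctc

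In these windows the match began 214 bases before the transcript start in Pkhd1 and at base 24 after it in Bbs4. The Pkhd1 match has 3 bases between its arms and that of Bbs4 has 2. The match is a description of letters and not of a bound site, and its absence from the other 6 windows says only that these letters are not there. Of the 4 listed transcription factors of cilium genes, Rfx1, Rfx2 and Rfx3 did not pass the test in senescent PTEC, at log2 fold changes of -0.18, 0.09 and 0.05. Foxj1, the remaining gene of that list, was called higher at 0.87 (adjusted p = 0.0015). Other RFX genes were not listed, and binding was not tested.

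The kidneys were compared between ages to ask whether the genes changed with chronological ageing. None of the 8 was called in any of the 3 comparisons. In kidney tissue, fewer cells of a type and less RNA per cell cannot be told apart. The test called 2.34% of 17067 genes in either direction between 24 and 3 months, 2.58% between 12 and 3 months and 1.33% between 24 and 12 months. At an unadjusted p below 0.05 the counts were 0, 1 and 1 of 8, both times Ift88, beside 18.2, 16.5 and 15.2% of all genes, and DESeq2 called none in any of the 3. The 3-month libraries were counted on another gene set (54146 identifiers) than the 12- and 24-month libraries (55401), so for comparisons with 3 months the age and the gene set cannot be told apart.

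Pkhd1 had the largest positive difference between 24 and 3 months. It was at 109, 185 and 95.2 CPM at 3 months, at 175, 117 and 183 CPM at 12 months and at 221, 157 and 200.05 CPM at 24 months. The highest 3-month kidney lay above the lowest kidney of each older group. The log2 fold change between 24 and 3 months was 0.55 (SE 0.28, 95% interval -0.08 to 1.17, adjusted p = 0.321), and the offset for exonic length gave 0.36.

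Bbs4 had the largest negative difference and the only groups of 24 and 3 months that did not overlap. It was at 11.4, 11.4 and 14.7 CPM at 3 months, at 11.2, 16.8 and 10.4 CPM at 12 months and at 7.93, 11.004 and 9.70 CPM at 24 months. All 24-month kidneys lay below all 3-month kidneys, though the gap was narrow, and 21.8% of 17033 genes had no overlap between these ages in either direction. For 24 against 3 months the log2 fold change was -0.42 (SE 0.23, 95% interval -0.93 to 0.09, adjusted p = 0.343).

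Ift88 had its highest mean at 12 months, with no call against either other age. It was at 16.1, 21.2 and 16.5 CPM at 3 months, at 23.6, 24.4 and 25.1 CPM at 12 months and at 18.5, 17.6 and 21.2 CPM at 24 months. The 12-month kidneys lay above all kidneys of the other ages. Of all genes 20.2% had no overlap between 12 and 3 months and 25.4% none between 24 and 12 months. For 12 against 3 months the log2 fold change was 0.42 (95% interval 0.09 to 0.75, adjusted p = 0.174) and for 24 against 12 months -0.36 (95% interval -0.68 to -0.03, adjusted p = 0.289), and both share the 12-month libraries.

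None of the other 5 genes was called either. Pkd1 ranged from 15.8 to 25.7 CPM over the 9 kidneys, and its log2 fold change between 24 and 3 months was -0.04 with a 95% interval of -0.44 to 0.36. Pkd2 ranged from 102 to 179 CPM, with a difference of 0.25 (-0.21 to 0.70). Arl13b lay between 6.41 and 10.97 CPM and differed by -0.11 (-0.55 to 0.33). Ift140 differed by 0.38 (-0.22 to 0.98) and Kif3a by 0.15 (-0.57 to 0.87) between these ages, and by 0.37 and 0.38 between 24 and 12 months. Each of the 8 genes had an interval that reached past the required size of 0.5 in at least 1 of the 3 comparisons.

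**Figure D4:**
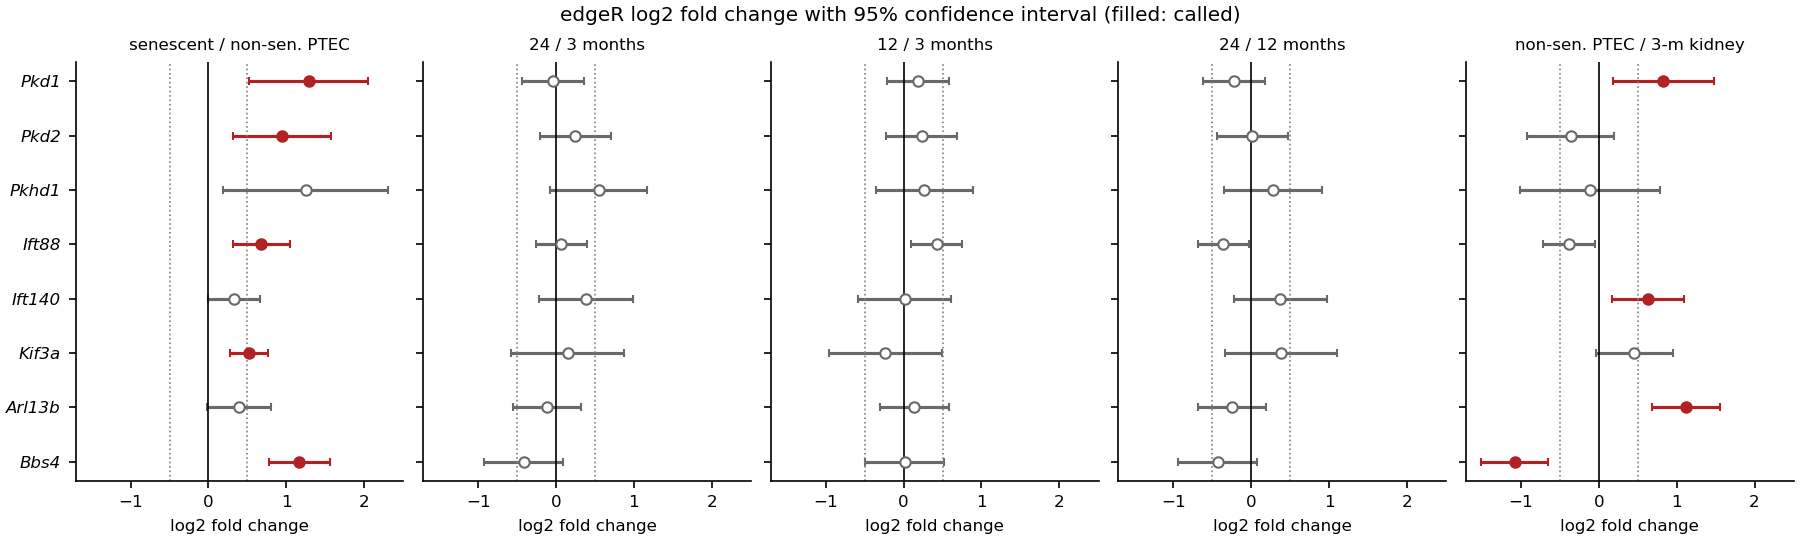
Log2 fold change of the 8 genes in the 5 comparisons with 95% confidence intervals from edgeR; filled red points were called, dotted lines mark the required size of 0.5 and the solid line marks 0. In senescent PTEC all 8 points lie right of 0 and 5 are filled, between kidney ages none is filled, and between non-senescent PTEC and 3-month kidney 4 are filled, Bbs4 to the left.

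Single kidneys set much of the spread. In kidney 3 of the 3-month group, kidney 2 of the 12-month group and kidney 2 of the 24-month group, Kif3a was at 14.1, 10.4 and 16.0 CPM, the lowest of each age. Ift140 was lowest in the same 3 kidneys, at 10.9, 10.8 and 16.0 CPM. Bbs4 went the other way and was highest in each of them, at 14.7, 16.8 and 11.004 CPM. These 3 kidneys also had the smallest share of counts on genes of at least 10 kb at their age, at 4.86, 5.34 and 6.39%. Their proximal tubule markers summed to 12614, 14768 and 18396 CPM, the lowest of each age, with Lrp2 at 1306, 1567 and 1889 CPM. The part of either measure in the pattern was not tested.

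Across the 9 kidneys Ift140 and Kif3a varied together (Pearson r = 0.93 of log2 CPM), as did Pkhd1 and Ift140 (0.91) and Pkd2 and Pkhd1 (0.90). Bbs4 ran against Ift140 (r = -0.91), Pkhd1 (-0.81) and Kif3a (-0.81), and Arl13b against Kif3a (-0.87) and Ift140 (-0.77). Pkd1 had no such relation with Pkd2 (0.04). Of the 28 pairs 11 were negative. Across the 8 PTEC libraries all 28 pairs were positive, from 0.58 for Pkhd1 and Kif3a to 0.97. These values are descriptions. The points share their group, and in PTEC the difference between senescent and non-senescent cultures.

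**Figure D5:**
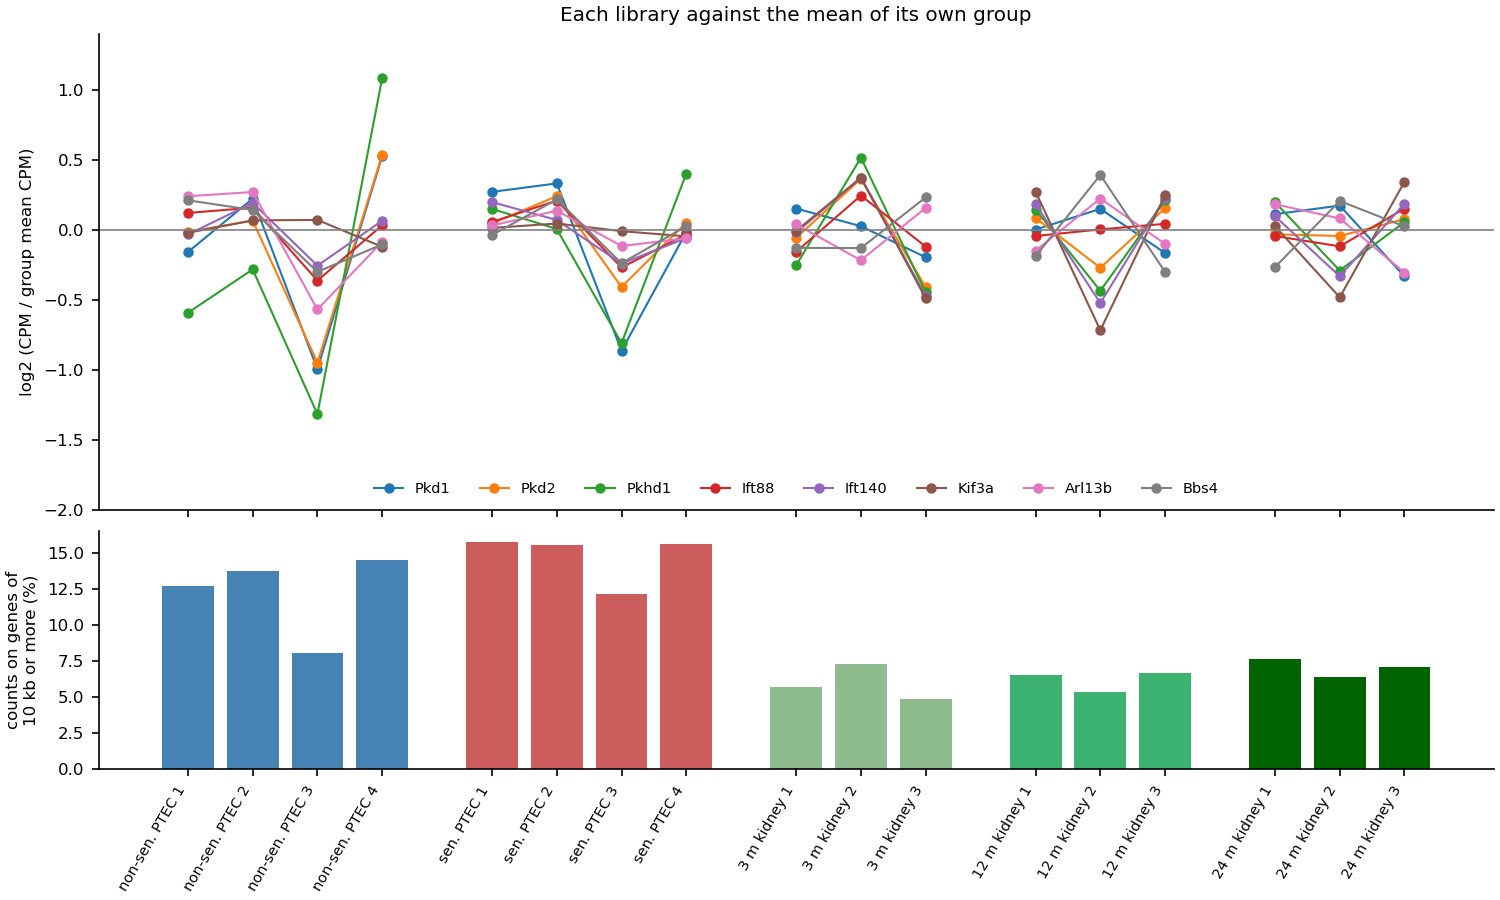
Upper panel: log2 ratio of each library's CPM to the mean of its own group for the 8 genes, with lines joining libraries of 1 group only to guide the eye. Lower panel: share of counts on genes with at least 10 kb of exon sequence, in percent, by library. The cultures numbered 3 are low for Pkd1, Pkd2 and Pkhd1 in both PTEC groups and have the lowest shares of their groups, 8.06 and 12.2%, while in 3 kidneys Kif3a and Ift140 are low where Bbs4 is high.

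Of the other cilium genes, 3 of 140 tested rose between 24 and 3 months and none fell. The 2.14% higher is near the 1.89% of all genes called higher, where 0.45% were called lower. The median log2 fold change of the 140 was 0.01. Nphp4, of the transition zone, was at 0.767, 0.937 and 0.904 CPM at 3 months and at 1.91, 1.89 and 2.21 CPM at 24 months. The groups lay apart, and the log2 fold change was 1.18 (SE 0.22, adjusted p = 0.0302). The call held in only 1 of 6 fits that left out 1 kidney, the one without kidney 2 of the 3-month group, and the adjusted p ran up to 0.168. Plk1 rose from 0.499 ± 0.100 to 2.73 ± 1.13 CPM (log2 fold change 2.42, adjusted p = 0.0098), opposite in direction to its fall in senescent PTEC. This call was lost without kidney 1 of the 3-month group (adjusted p = 0.0726). The proliferation markers as a whole summed to 8.26 to 9.78 CPM at 3 months and to 18.5 to 43.0 CPM at 24 months.

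Between 24 and 12 months 2 of 140 genes rose (1.43%, beside 0.90% of all genes), Plk1 by 2.29 (adjusted p = 0.0196) and Foxj1. The Plk1 call held in only 1 of 6 fits that left out 1 kidney (adjusted p from 0.0480 to 0.105). With kidneys paired by number, whose deviations correlated in this comparison, none was called. Between 12 and 3 months only the motile cilium gene Dnah9 was called higher (0.71%, beside 1.22% of all genes), a call whose direction the filter partly fixed. Other cell types moved with age as well. Collecting duct and distal tubule markers summed to 1620 to 1944 CPM at 3, 1021 to 1322 CPM at 12 and 1350 to 1756 CPM at 24 months. These sums pool genes that moved apart. Of the 10 genes 9 were lower at 24 than at 3 months, with 1 called, and 9 were lower at 12 than at 3 months, with 2 called. Of all genes 0.45% and 1.36% were called lower in these comparisons. Slc12a3 had means of 370, 514 and 696 CPM at 3, 12 and 24 months. Leukocyte markers summed to 31.4 to 44.0, 54.5 to 66.2 and 65.9 to 91.6 CPM. Fibroblast and pericyte markers summed to 109 to 130, 135 to 156 and 168 to 201 CPM, with none of 6 genes called. Of the 9 proximal tubule markers 2 were called higher at 24 than at 3 months, and their sums overlapped, at 12614 to 21853 and 18396 to 24194 CPM. Their part in the values of the 8 genes was not tested.

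The last comparison set non-senescent PTEC against 3-month kidney, to show how cultured cells differ from the organ they came from. Arl13b, Pkd1 and Ift140 were higher in culture and Bbs4 was lower. The test called 32.0% of 17999 genes higher in culture and 35.5% lower, so 3 of 8 higher is near the background and 1 of 8 lower is under it. The direction differed among the 8 genes, with 4 higher and 4 lower by their mean fold change. Culture and organ also differ in gene set, isolation and mitochondrial counts (0.696 to 2.04% in non-senescent PTEC and 9.09 to 9.94% in 3-month kidney), which cannot be told apart from the cells themselves.

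Arl13b was higher in every non-senescent culture (12.5 to 22.3 CPM) than in every 3-month kidney (7.25 to 9.40 CPM). Its log2 fold change of 1.12 (SE 0.21, 95% interval 0.68 to 1.55, adjusted p = 0.00014) kept its call in all 7 fits that left out 1 library. Bbs4 was lower in every culture (4.85 to 6.91 CPM) than in every kidney (11.4 to 14.7 CPM), with a log2 fold change of -1.08 (SE 0.21, 95% interval -1.52 to -0.65, adjusted p = 0.00017), and its call held as often. With irradiation and longer culture it stood at 11.1 to 15.2 CPM in senescent PTEC, a range that overlaps that of the 3-month kidneys.

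Ift140 was also apart between the groups, though narrowly, at 19.8 to 27.1 CPM in culture and 10.9 to 19.6 CPM in kidney (log2 fold change 0.63, SE 0.22, adjusted p = 0.0158). It lost the call without kidney 3 of the 3-month group (0.50, adjusted p = 0.0689). Pkd1 overlapped, at 18.1 to 52.0 against 17.6 to 22.5 CPM (log2 fold change 0.83, SE 0.31, adjusted p = 0.0241). It lost the call without non-senescent culture 2 or 4 (adjusted p = 0.0554 and 0.0921) or without kidney 3 (adjusted p = 0.0597).

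Ift88 was lower in culture without overlap, but at a log2 fold change of -0.38 (adjusted p = 0.0428) it stayed under the required size. Of all genes 29.1% were higher and 33.3% lower in culture without overlap, as were 2 (Ift140 and Arl13b) and 2 (Ift88 and Bbs4) of the 8. Pkd2 (-0.36, 95% interval -0.92 to 0.19), Pkhd1 (-0.12, -1.01 to 0.78) and Kif3a (0.46, -0.04 to 0.95) were not called. Without non-senescent culture 4 Pkd2 and Pkhd1 were called lower (-0.60 and -0.80, adjusted p = 0.0440 and 0.0391), and without kidney 2 of the 3-month group Kif3a was called higher (0.76, adjusted p = 0.0164). Over all tested genes the difference went with gene length. Among those of at least 10 kb the median log2 fold change was 0.63, and among those under 5 kb it was -0.35. With the offset for exonic length Pkd1 was at 0.11 and Ift140 at 0.31, neither called, while Pkd2 (-0.83) and Pkhd1 (-0.77) were called lower and Kif3a (0.60) higher. Arl13b at 1.03 and Bbs4 at -1.27 kept their calls.

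Among the other cilium genes 42 of 145 were higher and 46 lower in culture (29.0 and 31.7%), near the 32.0 and 35.5% of all genes. Of 8 disassembly genes 7 were higher, Plk1 most of all at a log2 fold change of 7.41 (adjusted p = 1.8e-11). Of the 12 BBSome and chaperonin genes beside Bbs4, 7 were lower and 2 higher, from Mkks at -1.52 to Bbs12 at 1.06. Of 16 IFT-B genes beside Ift88, 7 were lower, Ift20 most at -1.52 (-0.81 with the length offset), and 1 was higher. Of the 5 IFT-A genes beside Ift140, 3 were higher, Wdr35 most at 1.38, and Ift122 was lower at -1.10. Proliferation markers, at 8.26 to 9.78 CPM in 3-month kidney and 613 to 1099 CPM in non-senescent PTEC, moved with this comparison too.

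Over all 5 groups the order of the mean levels was steep for few of the genes. For Pkd1, Ift140, Kif3a and Arl13b it ran from senescent PTEC through non-senescent PTEC to the kidneys, and for Arl13b both PTEC groups lay above every kidney. For Kif3a only senescent PTEC stood apart from its neighbour in the order. For Pkd1, Ift140, Pkd2 and Pkhd1 each group overlapped the next. Pkd2 and Pkhd1 ran from senescent PTEC at 199 ± 35.5 and 280 ± 88.2 CPM down to non-senescent PTEC at 106 ± 40.4 and 120 ± 91.6 CPM. For Ift88 and Bbs4 non-senescent PTEC was lowest, and no library of it reached the range of the group next above.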

How the data were processed

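Libraries were prepared by the authors from poly(A)-selected RNA with a directional kit and processed with the nf-core/rnaseq pipeline on GRCm38 with a GENCODE annotation; the strand setting and the counter's options are not given in the sources used here. The deposited files hold raw counts per gene, 1 file per library, with 53715 identifiers in PTEC, 54146 in 3-month and 55401 in 12- and 24-month kidneys. Identifiers shared within PTEC (53715), within kidneys (53772) and across all 17 libraries (53313) were used, the last for levels and for culture against kidney; positions and lengths came from GENCODE M21.

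Genes low in all groups were removed with filterByExpr, libraries were scaled by TMM, and edgeR 4.0.16 was fitted with a quasi-likelihood test (robust, all groups of PTEC, of kidneys or of both) in R 4.3.3, two-sided, with Benjamini-Hochberg adjustment over all genes tested. A call needed an adjusted p below 0.05 and a log2 fold change beyond 0.5, as in the study's methods; fold changes are first over second group, and ± is SD. DESeq2 1.42.0 was an alternative. The scripts were tested on simulated data. Alternatives were RLE and upper-quartile scaling, no filter, no or a higher fold threshold, a replicate block, other sets of libraries and each library left out. An offset for exonic length and leaving out both cultures numbered 3 were added after seeing the data. The members and lists were chosen with earlier results of these data known. Named genes are the 8 members and, per list and comparison, the called genes with the highest and lowest fold change, and the 5 highest and 5 lowest over all lists. Adcy6, Rfx1, Rfx2, Rfx3, Wdr19, Ift57, Slc12a1 and Cldn16 were named after their values were seen. Same-numbered PTEC deviated together (correlation of deviations from the group means 0.28, 0.38, 0.61 and 0.19), as did 24- and 12-month kidneys (0.39, 0.56 and 0.19), so paired values are given there where they change a call; the labels state no pairing. Identical or duplicate libraries were not found. Counts were PCR-amplified reads without molecular identifiers.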

Additional observations from a re-analysis of the deposited data

How the results depend on the processing

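The count of 8 genes higher in senescent PTEC stayed between 4 and 6 under every alternative run except a log2 fold change above 1, which left 2 (and 16 pathway genes higher and 4 lower). With the replicate block it was 6, Pkhd1 being added, and the block changed no other call on the 8 genes in PTEC. DESeq2 and the length offset also gave 6 with Pkhd1. None of the 8 was called between kidney ages under any alternative run. In culture against kidney, the calls of the 8 genes were 1 higher at a log2 fold change above 1, 1 to 4 higher and 1 to 3 lower with 1 library left out, and 3 lower with the length offset or 2 with no fold threshold; pathway genes at a log2 fold change above 1 were 26 higher and 28 lower.

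Pathway calls between kidney ages were few and changed easily. For 24 against 3 months (3 higher, 0 lower) the replicate block gave 1 higher, DESeq2 6 higher and 1 lower, and leaving out 1 kidney 0 to 4 higher and 0 to 1 lower. For 12 against 3 months (1 higher) the length offset gave 3, upper-quartile scaling 2, the block 0, DESeq2 4, the 2 ages alone 0, and leaving out 1 kidney 0 to 2. For 24 against 12 months (2 higher, 0 lower) the block gave 0 higher, DESeq2 4 lower, and leaving out 1 kidney 0 to 1 higher. In the comparisons with 3 months same-numbered kidneys did not deviate together (correlations of -0.04 to -0.74), so there the block pairs no more than a number. The cause of these shifts was not tested.

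Signs changed only for differences that were not called. Between 24 and 3 months, leaving out 1 kidney gave log2 fold changes of -0.13 to 0.10 for Pkd1, -0.015 to 0.20 for Ift88, -0.058 to 0.38 for Kif3a and -0.21 to 0.016 for Arl13b. Between 12 and 3 months it gave -0.18 to 0.24 for Ift140, -0.43 to 0.023 for Kif3a and -0.24 to 0.15 for Bbs4. The length offset and the block gave -0.022 and -0.017 for Ift140 and -0.013 and -0.012 for Bbs4. Between 24 and 12 months Pkd2 was at -0.10 with the length offset, -0.035 with upper-quartile scaling, -0.00077 without the filter and -0.10 to 0.11 with 1 kidney left out. Pkhd1 in culture against kidney ran from -0.80 to 0.29 with 1 library left out. Each of the 8 genes had at least 156 counts in every library, while motile cilium genes had few; whether depth limited any call was not tested.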

Other observations

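Genes of motile cilia, which carry dynein arms and radial spokes and are not a usual part of tubule cells, were detected at low levels in PTEC. Of 13 listed genes 8 had enough counts to be tested. A gene at the floor in non-senescent PTEC could enter only by being high in senescent PTEC, so how many of the 8 passed in each direction is partly fixed by the filter. Rsph4a, of the radial spoke head, was at 0.352, 0.392, 0.155 and 0.434 CPM in non-senescent and at 2.64, 3.10, 0.871 and 1.26 CPM in senescent PTEC (log2 fold change 2.58, SE 0.48, adjusted p = 0.0022). Every senescent culture lay above every non-senescent one, as for 21.0% of the 15383 tested genes with a level in all libraries. Rsph4a had 5 to 15 counts in each non-senescent and 41 to 120 in each senescent culture. Dnaic2, a dynein intermediate chain, had 1 to 4 and 13 to 29 counts, and Ccno, needed for making many centrioles, 1 to 5 and 11 to 25. Rsph4a, Dnaic2 and Ccno could not enter the test through non-senescent PTEC alone, so the filter at least partly fixed the direction of their calls. Ccdc40, with 18 to 21 counts in each non-senescent culture, rose by 0.78 (adjusted p = 0.0269) and was called in 3 of 8 fits that left out 1 culture.

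Foxj1, the transcription factor of motile cilia, was much higher in culture than in kidney. It was at 42.6, 44.1, 41.2 and 29.3 CPM in non-senescent and at 65.0, 65.7, 81.5 and 67.6 CPM in senescent PTEC, against 0.863, 0.557 and 0.657 CPM in 3-month kidney. All PTEC libraries lay far above all kidneys. It rose by 0.87 in senescent PTEC (SE 0.15, adjusted p = 0.0015) and by 5.82 in non-senescent PTEC over 3-month kidney (SE 0.26, adjusted p = 7.6e-12).

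With age, Foxj1 was at 0.721, 0.505 and 0.4999 CPM at 12 months and at 1.89, 2.89 and 2.91 CPM at 24 months. The 24-month kidneys lay above all younger ones. Foxj1 rose by 1.86 on the log2 scale against 3 months (adjusted p = 0.0148) and by 2.15 against 12 months (adjusted p = 0.0181; 0.0967 with kidneys paired by number). The first call was lost without kidney 1 or 3 of the 3-month group or kidney 3 of the 24-month group (adjusted p = 0.0573, 0.0574 and 0.0568), and the second in all 6 fits that left out 1 kidney (adjusted p from 0.0536 to 0.104). Dnah9, a motile cilium dynein, was at 0.351, 0.329 and 0.110 CPM at 3 months and at 2.45, 0.707 and 2.05 CPM at 12 months (log2 fold change 2.69, adjusted p = 0.0439), and lost the call in 5 of 6 fits that left out 1 kidney. At 24 months Dnah9 was at 1.61, 1.04 and 1.79 CPM, above every 3-month kidney, but was not called against 3 months. Its counts were 4 to 13 in each 3-month kidney. Dnah9 could not enter the test through the 3-month group alone, so the filter partly fixed the direction of its call.

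Relatives of the polycystins had few counts. Of 6 listed genes 2 were tested in PTEC and 1 in kidney, and none was called between senescent and non-senescent PTEC or between ages. In culture against kidney 4 were tested, of which 2 were called higher, Pkd1l1 among them, and 1 lower, Pkd2l2. Of all genes 32.0% were called higher and 35.5% lower. Pkd1l1 was at 0.808 ± 0.355 CPM in non-senescent PTEC (SD, n = 4) with 16 to 48 counts, and at 0.038 ± 0.041 CPM in 3-month kidney (n = 3) with 0 to 3 counts. Pkd2l2 was at 1.59 ± 0.433 CPM in 3-month kidney with 35 to 72 counts, and at 0.059 ± 0.051 CPM in non-senescent PTEC with 0 to 4 counts. Neither Pkd1l1 nor Pkd2l2 could enter the test through the group of this comparison where it was low, so the filter partly fixed the direction of their calls. The fit held all 17 libraries, so each could also enter through a group outside this comparison.

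Likeness of log2 CPM over the 17 libraries was taken against 13935 genes averaging 1 CPM or more. Pkhd1 was most like Pkd2 (Pearson r = 0.93), followed by App (0.92). For Pkd1 these were Kdm4c (0.98) and Zfp449 (0.97), and for Pkd2 5730455P16Rik (0.97) and Mpp5 (0.96). Ift140 was most like Fam193a (0.99) and Sptan1 (0.98), Kif3a like Ttll1 and Nfe2l1 (both 0.97), and Ift88 like Serinc1 (0.94) and C330011M18Rik (0.92). Arl13b was most like Filip1l (0.99) and Nsmaf (0.99), and Bbs4 like Dynlt3 (0.96) and Spata33 (0.95). These values describe the 17 libraries, which fall into cultures and kidneys and share their groups.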
